A study of Mus musculus with 15 samples.

Results

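The transcriptomes of ileal organoids treated with the bile acid pool H10 were set against those of organoids treated with the pool M90, in 6 of the 15 RNA sequencing libraries of the series (3 H10 and 3 M90, each lettered a, b and c). H10 is a mixture modelled on human bile acids with 10% of them 12α-hydroxylated (the bile acids with a hydroxyl at position 12 of the sterol, such as cholic and deoxycholic acid). M90 is a mixture modelled on mouse bile acids with 90% of them 12α-hydroxylated. The pools therefore differ at once in the species modelled and in the 12α-hydroxylated share, and the effects of these cannot be told apart in this contrast. Vehicle libraries (n = 3) are given as the background, and H90 (human model, 90%) and M10 (mouse model, 10%) only where a value bears on a result. Every group, Vehicle included, was grown from crypts of C57BL/6 mouse ileum in Matrigel, used at passage 2, split on day 10, treated on day 14 and kept for 24 h in basal medium with 0.2% bovine serum albumin. Dose and further composition of the pools are not given in the sources used here, so the pools are compared as whole mixtures. The labels leave it unsaid if libraries a, b and c stem from distinct mice or cultures, so p-values measure the spread between these libraries, which may be technical. Of 23420 gene symbols, 13159 had enough reads to be tested, and all of these were the members compared.

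Bile acids are made from cholesterol in the liver, modified by gut bacteria and taken back up in the ileum, where they also act as signals. The nuclear receptor FXR senses them and turns on their binding protein, their basolateral exporter and the hormone Fgf15. The vitamin D receptor and PXR bind some bile acid species, among them lithocholic acid, and turn on genes for calcium uptake and detoxification. Fatty acids act in the same cells through PPARα, the receptor that drives fatty acid oxidation, and stress of amino acid supply or of the endoplasmic reticulum acts through the transcription factor ATF4.

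The H10 and M90 libraries held 18722586 to 25845919 counts each. Levels are counts per 10⁶ counts of a library (CPM) on TMM-scaled totals, and each difference is H10 minus M90 on the log2 scale, ± its standard error, from 1 edgeR quasi-likelihood model of all 15 libraries. A gene passed at a Benjamini-Hochberg adjusted p under 0.05 over all 13159 genes, and "rose" and "fell" refer to such genes and to H10 relative to M90. CPM does not correct for transcript length, so levels are compared between groups and not between genes. The libraries also split in a way the pools do not set. Mup20, a urinary protein made by liver, stood at 35.9, 23.0 and 24.4 CPM of plain totals in H10 libraries, against 0.583, 0.552 and 0.421 CPM in M90 libraries. Vehicle and H90 a were high for it (set 1). H90 b and c and M10 were low (set 2). All H10 libraries thus lie in set 1 and all M90 libraries in set 2, so pool and library set cannot be told apart here and no within-set value exists. H90 alone spans both sets, which gives 2 gauges: H90 a minus the mean of H90 b and c for a single gene, and a model with library set as a term, which rests on the 1 library H90 a. Counts from that second model are given beside the gene lists.

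The organoids carried the defining transcripts of small intestinal epithelium in both groups. Vil1, villin of the brush border, averaged 2402 ± 17.9 CPM in H10 libraries and 2271 ± 73.1 CPM in M90 libraries (± SD, n = 3 each, here and below). Epcam, an epithelial adhesion protein, averaged 1719 ± 15.9 CPM in H10 libraries and 1533 ± 49.4 CPM in M90 libraries. Of markers of other cells, a fibroblast list had 4 of 20 genes tested, with Col6a1, Thy1, Gli1 and Foxf1 at 0 counts in all 6 libraries. A leukocyte list had 4 of 18 tested with 9 at 0, a list for endothelium, nerve and red cells 6 of 18 with 4 at 0, and a list for stomach, pancreas and colon 7 of 23 with 14 at 0. Hepatocyte transcripts were the exception, with 29 of 30 tested, and are described below. In bulk RNA, more cells of a type and more RNA per cell cannot be told apart.

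H10 and M90 were paired because both lowered proliferation genes by a similar amount against Vehicle, so this similarity is a description and no result. Summed over 32 genes of DNA replication, levels were 382, 378 and 385 CPM in H10 libraries and 368, 385 and 375 CPM in M90 libraries, against 1413, 1387 and 1556 CPM in Vehicle libraries. The 30 genes of mitosis summed to 497, 447 and 472 CPM in H10 libraries and 459.7, 492 and 489.7 CPM in M90 libraries, against 2454, 2355 and 2499 CPM in Vehicle libraries. All 62 genes lay below Vehicle without overlap in both pools, while H10 and M90 differed from each other by a median log2 of -0.00141, with 61 of 62 within 0.5. Top2a, which untangles DNA in dividing cells, stood at 42.2, 34.2 and 36.5 CPM in H10 libraries, against 38.5, 37.9 and 38.9 CPM in M90 libraries, and at 252 ± 8.00 CPM in Vehicle libraries (SD, n = 3). Chaf1a, a histone chaperone of replication, was the gene furthest apart (log2 difference -0.51).

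**Figure D1:**
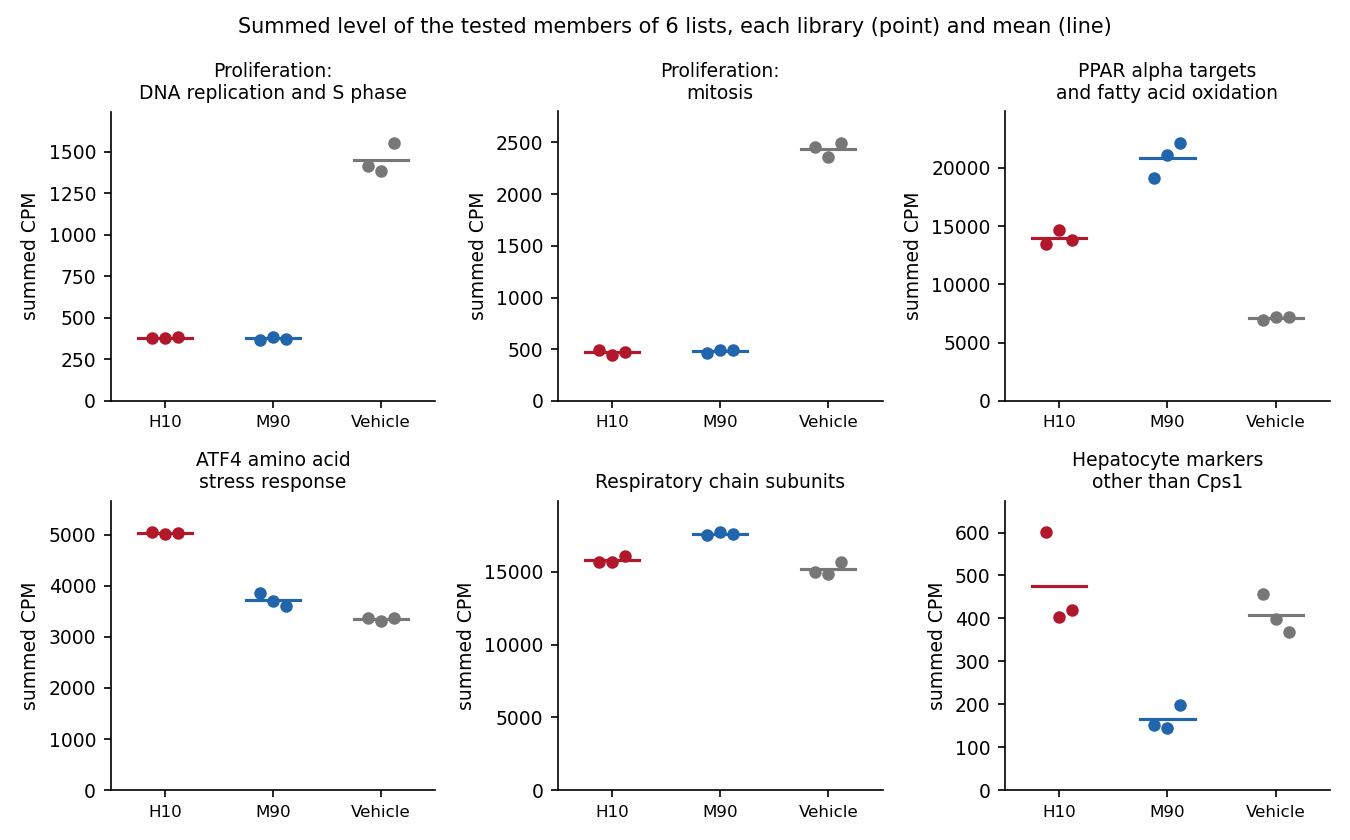
Summed CPM (vertical axis, linear, from 0) of the tested genes of 6 lists in each H10, M90 and Vehicle library; points are libraries and lines are means. H10 and M90 lie together far below Vehicle for the proliferation lists, M90 is highest for PPARα targets and respiratory chain subunits, H10 is highest for ATF4 targets, and M90 is lowest for hepatocyte markers.

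Beyond proliferation, the pools differed in many genes. Of 13159 genes, 1975 passed (15%), 993 of them higher in H10 (7.55%) and 982 lower (7.46%), and the median over all genes was 0.00255. Differences were mostly small: 154 genes (1.17%) passed at 2-fold or more, 90 of them higher and 64 lower. In the model with a term for library set 365 passed, 332 of which had passed before in the same direction. Without M90 b, 1303 genes passed. Among the 11630 genes on which H90 a lay within 0.5 log2 of H90 b and c, 905 rose and 962 fell, 17 and 55 of them by 2-fold or more. Among the 237 genes on which H90 a lay more than 1 log2 above H90 b and c, 58 rose and 2 fell, and these 58 make up most of the 90 genes that rose at least 2-fold.

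**Figure D2:**
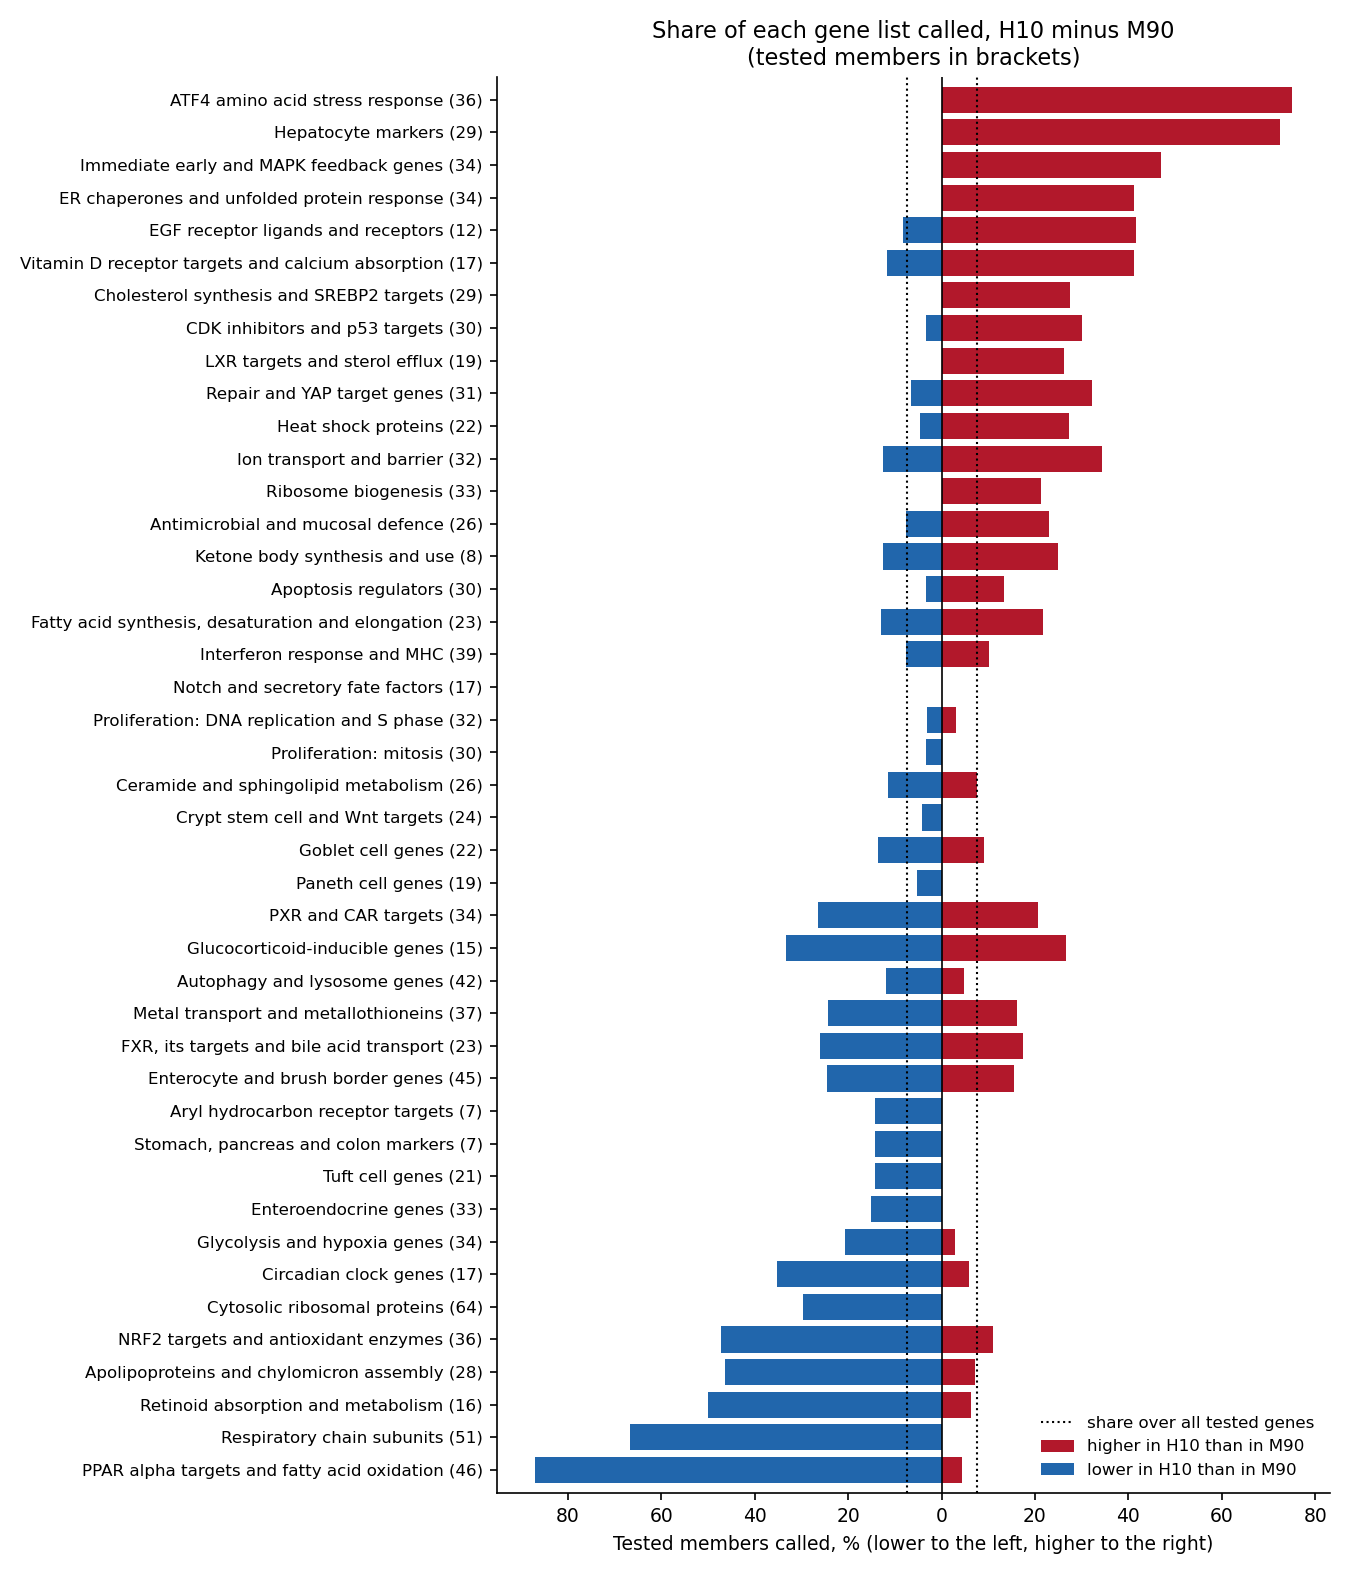
Share of tested genes in each list that passed as higher or lower in H10 than in M90 (horizontal axis, percent), for lists with at least 7 tested genes, with dotted lines at the shares over all genes (7.55% and 7.46%). The longest bars are the fall of PPARα targets (40 of 46), the rise of ATF4 targets (27 of 36), the rise of hepatocyte markers (21 of 29) and the fall of respiratory chain subunits (34 of 51).

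The largest difference among the ranked genes lay in a vitamin D receptor target. Cyp24a1, the enzyme that breaks down active vitamin D and the most inducible target of its receptor, stood at 223, 186 and 189.6 CPM in H10 libraries, against 0.653, 0.738 and 0.299 CPM in M90 libraries. No M90 library came near any H10 library, and Vehicle averaged 0.225 ± 0.143 CPM. The gene (chr2:170482708-170497145, build GRCm38 here and below) was 354-fold higher in H10 (log2 difference 8.47 ± 0.134, edgeR adjusted p = 6.06e-30), and with library set as a term the difference was 9.28 with edgeR adjusted p = 2.57e-10. Its mean was 493 CPM in M10 libraries and 0.651 CPM in H90 libraries, so both pools with 10% 12α-hydroxylated bile acids were high and both with 90% were low. S100g, the calbindin that carries calcium through the enterocyte, stood at 673, 644 and 724 CPM in H10 libraries, against 317, 269 and 255 CPM in M90 libraries, with Vehicle at 40.6 ± 3.65 CPM. It was 2.43-fold higher in H10 (log2 difference 1.28 ± 0.107, edgeR adjusted p = 5.30e-06). Atp2b1, the pump that exports calcium at the basal side, averaged 578 ± 10.8 CPM in H10 libraries and 358 ± 29.8 CPM in M90 libraries and rose as well (log2 difference 0.69 ± 0.0561, edgeR adjusted p = 1.04e-10).

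In the whole list of vitamin D receptor targets and calcium absorption, 7 passed as higher in H10 and 2 as lower of 17 tested (median log2 difference 0.29, 4 and 2 with the library set term). Cldn2, a claudin that forms a cation pore between cells, rose (log2 difference 0.68 ± 0.0564, edgeR adjusted p = 1.94e-11), and so did Slc34a2, a phosphate importer (log2 difference 0.71 ± 0.119, edgeR adjusted p = 0.000979). Cyp3a11, an oxidase shared with PXR, was higher by 0.27 with edgeR adjusted p = 0.0261, but its adjusted p was 0.102 without H10 b, 0.0963 without H10 c, 0.0528 without M90 a, 0.0665 without M90 b. Cldn12, another claudin, had edgeR adjusted p = 0.0136, and 0.0929 without H10 c, 0.0503 without M90 a, 0.0680 without M90 b. The exceptions in direction were the receptor itself and a metallothionein. Vdr averaged 735 ± 30.1 CPM in H10 libraries and 1001 ± 8.16 CPM in M90 libraries and fell (log2 difference -0.45 ± 0.0414, edgeR adjusted p = 2.85e-10). Mt2, which binds zinc, fell too (log2 difference -0.80 ± 0.0448, edgeR adjusted p = 8.54e-16).

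**Figure D3:**
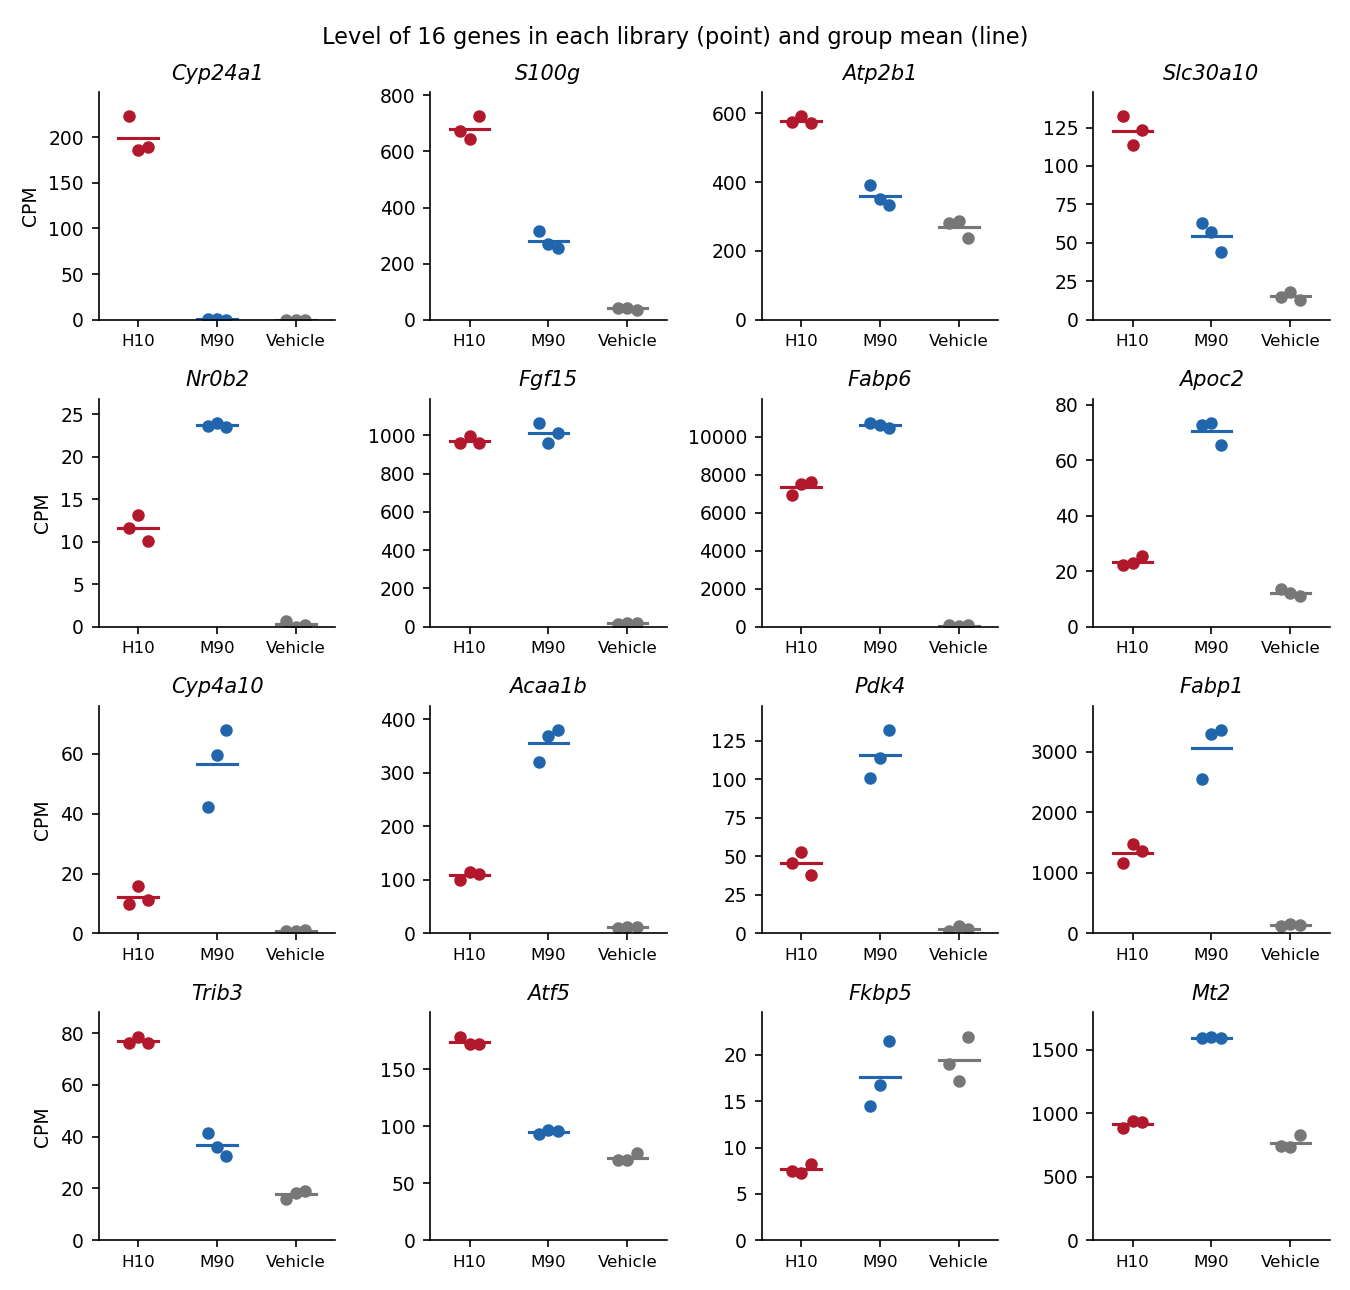
Level of 16 genes (vertical axes, CPM on TMM-scaled totals) in each H10, M90 and Vehicle library; points are libraries and lines are group means. Cyp24a1, S100g, Slc30a10 and the ATF4 target Trib3 are highest in H10, whereas Nr0b2, Fabp6 and the PPARα targets Acaa1b and Cyp4a10 are highest in M90.

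FXR targets did not move as 1 group between the pools. The list had 4 genes higher and 6 lower of 23 tested (median 0.0626), and 2 and 1 with the library set term. Fgf15, the gut hormone that tells the liver to make less bile acid, stood at 961, 998 and 958 CPM in H10 libraries, against 1064, 958 and 1013 CPM in M90 libraries, with Vehicle at 16.8 ± 2.22 CPM. Its groups overlapped (log2 difference -0.0567, 95% interval -0.20 to 0.0902, edgeR adjusted p = 0.681). Nr1h4, which encodes FXR, also overlapped (log2 difference 0.0626, 95% interval -0.0431 to 0.17, edgeR adjusted p = 0.499). Nr0b2, the repressor SHP, stood at 11.6, 13.2 and 10.1 CPM in H10 libraries, against 23.6, 23.9 and 23.5 CPM in M90 libraries, and at 0.285 ± 0.326 CPM in Vehicle libraries. All H10 libraries lay below all M90 libraries, and the gene was 2.04-fold lower in H10 (log2 difference -1.03 ± 0.223, edgeR adjusted p = 0.00187; -0.85 with edgeR adjusted p = 0.373 with the set term).

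The genes that carry bile acids through the ileal cell fell on the binding and export side. Fabp6 (chr11:43596049-43601540), the cytosolic bile acid binding protein, stood at 6899, 7502 and 7605 CPM in H10 libraries, against 10703, 10612 and 10457 CPM in M90 libraries, a difference of -0.53 ± 0.0992 (edgeR adjusted p = 0.00397). Slc51a and Slc51b, the subunits of the basolateral exporter, fell by 0.350 and 0.323 on the log2 scale (edgeR adjusted p = 2.06e-07 and 5.01e-06). Slc10a2, the apical importer, went the other way, at 67.5, 75.6 and 66.8 CPM in H10 libraries, against 50.1, 41.0 and 42.9 CPM in M90 libraries. Slc10a2 was 1.57-fold higher in H10 (log2 difference 0.65 ± 0.140, edgeR adjusted p = 0.00550), with every H10 library above every M90 library. With the library set term the 4 genes had edgeR adjusted p of 0.457, 0.163, 0.515 and 0.293. Slc30a10 (chr1:185454848-185468762), a manganese exporter, stood at 132, 113 and 123 CPM in H10 libraries, against 62.9, 57.1 and 44.1 CPM in M90 libraries, with Vehicle at 15.5 ± 2.55 CPM. It was 2.25-fold higher in H10 (log2 difference 1.17 ± 0.118, edgeR adjusted p = 1.44e-06; 1.26 with edgeR adjusted p = 0.00877 with the set term). H90 a differed from H90 b and c by -0.0934. Apoc2, the cofactor of lipoprotein lipase, averaged 23.5 ± 1.79 CPM in H10 libraries and 70.5 ± 4.41 CPM in M90 libraries and was 2.99-fold lower (log2 difference -1.58 ± 0.0874, edgeR adjusted p = 7.90e-16).

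Detoxification genes also split. Of PXR and CAR targets, 7 rose and 9 fell of 34 tested (median 0.0351), and 5 and 0 passed with the library set term. Cyp2c55, a cytochrome P450 of the intestine, averaged 1358 ± 78.6 CPM in H10 libraries and 939.6 ± 32.9 CPM in M90 libraries (log2 difference 0.53 ± 0.0455, edgeR adjusted p = 3.68e-11). The carboxylesterases Ces2a and Ces2c, which cut esters and drugs, rose by 0.43 and 0.53 (edgeR adjusted p = 1.89e-09 and 3.68e-11). Ugt2b34 and Ugt2b35, which add glucuronic acid, rose by 0.27 and 0.48 (edgeR adjusted p = 1.53e-05 and 1.14e-05). Abcb1a, a drug efflux pump, rose by 0.19 (edgeR adjusted p = 0.00477, and 0.0961 without H10 b). Against this, Por, the electron donor of the cytochromes P450, averaged 889.9 ± 15.6 CPM in H10 libraries and 1060.4 ± 20.8 CPM in M90 libraries and fell (log2 difference -0.25 ± 0.0411, edgeR adjusted p = 1.92e-05). Gstm1, a glutathione transferase, fell by 0.389 (edgeR adjusted p = 0.00653). Ces1g, an esterase of lipid metabolism, was 2.18-fold lower (log2 difference -1.13 ± 0.149, edgeR adjusted p = 0.000297). Of 7 aryl hydrocarbon receptor targets, Cyp1a1 alone passed (14.3%, near the 15% of all genes). It stood at 2.53, 3.22 and 2.59 CPM in H10 libraries, against 5.17, 7.17 and 5.99 CPM in M90 libraries (edgeR adjusted p = 0.00703). Its edgeR adjusted p was 0.0563 without M90 b. Without M90 a 2 genes of the list passed, and none did with the library set term.

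Fatty acid oxidation had the largest share of genes that fell among the lists. Of 46 PPARα targets and oxidation genes tested, 40 fell and 2 rose, 44 of 46 differences were below 0, and the median was -0.49, against 0.00255 over all genes. With the library set term 22 passed as lower and 0 as higher. The summed level was 13430.1, 14683 and 13774 CPM in H10 libraries and 19106, 21138 and 22174 CPM in M90 libraries, against 6979, 7194 and 7174 CPM in Vehicle libraries, so both pools lay above Vehicle and M90 lay above H10 without overlap.

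Acaa1b (chr9:119148023-119157093), a peroxisomal thiolase, stood at 99.5, 115 and 111 CPM in H10 libraries, against 320.0, 369 and 380.3 CPM in M90 libraries, with Vehicle at 11.8 ± 1.24 CPM. Every H10 library lay below every M90 library, and the gene was 3.29-fold lower (log2 difference -1.72 ± 0.0778, edgeR adjusted p = 2.18e-14). Cyp4a10, a fatty acid ω-hydroxylase, stood at 9.86, 15.9 and 11.2 CPM in H10 libraries, against 42.3, 59.6 and 68.0 CPM in M90 libraries. Cyp4a10 was 4.61-fold lower in H10 (log2 difference -2.20 ± 0.204, edgeR adjusted p = 1.28e-07), though reads of near-identical Cyp4a genes could be shared. Acot1 and Acot12, which cut acyl-CoA, were 2.49-fold and 3.00-fold lower (edgeR adjusted p = 5.86e-10 and 3.85e-05), with the same limit for Acot1 and its close copies. Fabp1, which binds fatty acids in the cytosol, stood at 1162, 1474 and 1363 CPM in H10 libraries, against 2542, 3297 and 3358 CPM in M90 libraries, with Vehicle at 135 ± 14.3 CPM. Fabp1 was 2.30-fold lower in H10 (log2 difference -1.20 ± 0.129, edgeR adjusted p = 8.17e-05), with every H10 library below every M90 library. In mitochondria, Cpt1a, the gate for fatty acid entry, fell by 0.343 (edgeR adjusted p = 9.60e-07) and Slc25a20, the carnitine carrier, by 0.605 (edgeR adjusted p = 2.72e-10).

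Regulators and secreted targets fell with the enzymes. Pdk4, the kinase that shuts glucose carbon out of mitochondria, stood at 45.6, 52.9 and 37.7 CPM in H10 libraries, against 101, 114 and 132 CPM in M90 libraries, and at 2.98 ± 1.66 CPM in Vehicle libraries. Pdk4 was 2.55-fold lower in H10 (log2 difference -1.35 ± 0.199, edgeR adjusted p = 0.000779), with every H10 library below every M90 library. Angptl4, a secreted inhibitor of lipoprotein lipase, averaged 92.1 ± 3.83 CPM in H10 libraries and 163 ± 14.1 CPM in M90 libraries (log2 difference -0.82 ± 0.0665, edgeR adjusted p = 8.12e-12). Creb3l3, a membrane-bound transcription factor of liver and gut, averaged 298 ± 14.3 CPM in H10 libraries and 497 ± 13.7 CPM in M90 libraries (log2 difference -0.74 ± 0.0526, edgeR adjusted p = 5.88e-13). Vnn1, which makes pantothenic acid again, was 1.94-fold lower (edgeR adjusted p = 1.13e-12). The receptor gene Ppara fell by 0.223 (edgeR adjusted p = 0.00641, and 0.0571 without H10 a, 0.0809 without M90 c). The genes that rose were the other receptors: Ppard (log2 difference 0.47 ± 0.0556, edgeR adjusted p = 6.32e-08) and Pparg (edgeR adjusted p = 0.0499, and 0.109 without H10 a, 0.160 without H10 b, 0.0976 without H10 c, 0.203 without M90 b, 0.246 without M90 c). Of the 8 ketone genes tested, Slc16a6, a ketone exporter in zebrafish liver, and Oxct1, which uses ketones, rose by 0.70 and 0.25 (edgeR adjusted p = 7.87e-08 and 0.00121, and with the set term 0.00567 for Slc16a6, while Oxct1 did not pass).

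**Figure D4:**
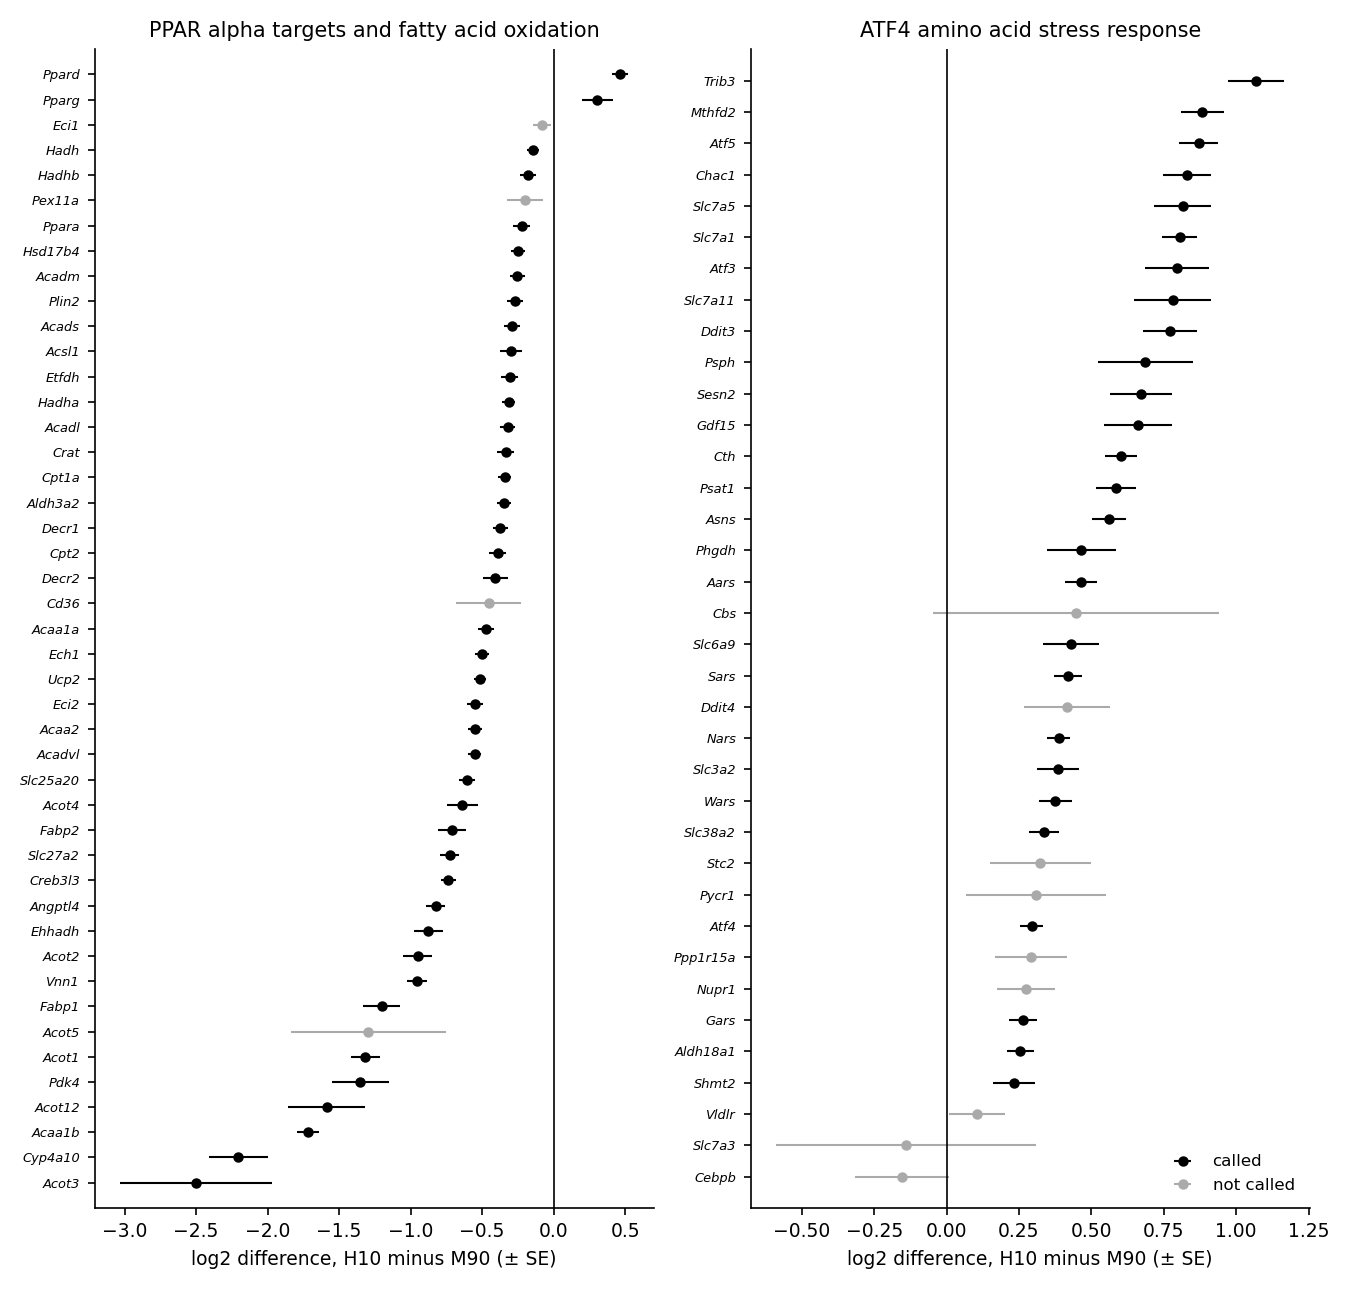
Log2 difference H10 minus M90 (horizontal axis, ± SE) of tested genes of the PPARα list (1 not drawn) and the ATF4 list, ordered by size. The PPARα genes drawn lie left of 0 except Ppard and Pparg, and ATF4 targets right of 0 for 34 of 36.

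Among genes that package dietary fat and vitamin A more fell than rose, whereas the sterol genes that passed rose. Of apolipoprotein and chylomicron genes, 2 passed as higher in H10 and 13 as lower of 28 tested (median log2 difference -0.17, 0 and 5 with the library set term). Apoa1, the main protein of HDL, stood at 1939, 1746 and 2059 CPM in H10 libraries, against 3116, 3266 and 2940.4 CPM in M90 libraries. Apoa1 was 1.62-fold lower in H10 (log2 difference -0.70 ± 0.0631, edgeR adjusted p = 1.67e-07), with every H10 library below every M90 library. Apoa4, a chylomicron protein, averaged 411 ± 20.3 CPM in H10 libraries and 628 ± 67.2 CPM in M90 libraries (log2 difference -0.61 ± 0.0732, edgeR adjusted p = 1.38e-05). Apob and Mttp, which build the particle itself, did not pass (log2 difference 0.0484, 95% interval -0.14 to 0.24, edgeR adjusted p = 0.796 for Apob, and -0.0458, -0.13 to 0.0354 and 0.525 for Mttp). Mgll, which cuts monoacylglycerol, was 2.33-fold lower (edgeR adjusted p = 3.80e-09). Slc27a4, a fatty acid transporter, fell by 0.415 (edgeR adjusted p = 1.35e-08). Of retinoid genes, 1 passed as higher in H10 and 8 as lower of 16 tested (median log2 difference -0.27, 0 and 3 with the library set term). Rbp2, the retinol carrier of the enterocyte, averaged 118 ± 2.27 CPM in H10 libraries and 203 ± 21.0 CPM in M90 libraries (log2 difference -0.79 ± 0.0658, edgeR adjusted p = 9.79e-11). Retsat and Adh4, enzymes of retinol, fell by 0.729 and 0.705 (edgeR adjusted p = 6.88e-10 and 4.16e-11). Isx, the repressor of vitamin A uptake, stood at 24.8, 20.4 and 14.4 CPM in H10 libraries, against 41.2, 29.4 and 29.2 CPM in M90 libraries (edgeR adjusted p = 0.0306, and 0.0805 without H10 b, 0.0705 without H10 c, 0.0769 without M90 a).

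Of cholesterol synthesis genes, 8 passed as higher in H10 and 0 as lower of 29 tested (median log2 difference 0.0742, 1 and 0 with the library set term). Hmgcs1, an early step of the pathway, averaged 1203 ± 8.45 CPM in H10 libraries and 974 ± 9.86 CPM in M90 libraries (log2 difference 0.30 ± 0.0384, edgeR adjusted p = 2.02e-07). Stard4, a sterol carrier, rose by 0.25 (edgeR adjusted p = 0.000565). The count of 8 was 4 without H10 a, 5 without M90 b and 4 without M90 c. Of LXR targets, 5 passed as higher in H10 and 0 as lower of 19 tested (median log2 difference 0.0595, 2 and 0 with the library set term). Abca1, the cholesterol efflux pump, averaged 45.6 ± 5.21 CPM in H10 libraries and 26.2 ± 1.05 CPM in M90 libraries (log2 difference 0.80 ± 0.117, edgeR adjusted p = 4.64e-06). Abcg5 and Abcg8, the apical sterol exporters, did not pass (edgeR adjusted p = 0.764 and 0.998). Apoe and Apoc1, also in that count, are made by liver, and H90 a lay 1.42 and 0.66 above H90 b and c for them. Apoe had edgeR adjusted p up to 0.0836 when 1 library was left out (M90 b). Of fatty acid synthesis genes, 5 passed as higher in H10 and 3 as lower of 23 tested (median log2 difference 0.0595, 3 and 2 with the library set term). Scd2, a desaturase, and Srebf1, the lipogenic regulator, rose by 0.40 and 0.38 (edgeR adjusted p = 4.29e-08 and 8.05e-08). Acacb, the acetyl-CoA carboxylase at mitochondria that restrains fatty acid entry, stood at 24.4, 25.9 and 19.4 CPM in H10 libraries, against 64.9, 68.5 and 76.9 CPM in M90 libraries and was 3.03-fold lower (log2 difference -1.60 ± 0.113, edgeR adjusted p = 6.27e-13). Me1, which makes NADPH, fell by 0.914 (edgeR adjusted p = 1.77e-09).

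The ATF4 response to amino acid stress had the largest share of genes that rose among the lists. Of 36 genes tested, 27 rose and 0 fell, 34 of 36 differences were above 0, and the median was 0.44. With the library set term 21 passed as higher and 0 as lower, and the median of H90 a minus H90 b and c over the list was -0.0798. The summed level was 5058, 5013 and 5037 CPM in H10 libraries and 3856, 3706 and 3611 CPM in M90 libraries, against 3362, 3312 and 3374 CPM in Vehicle libraries. The 8 bases TGATGNAA, the core to which ATF4 binds with its C/EBP partners, were searched on both strands of the RefSeq promoter windows of the list (GRCm38.p6, 250 bases before to 50 after the start), since these genes moved together. A gene counted if any of its windows held a match. Matches occurred in 11 of 32 genes of the list with a window searched (34.4%). This compares with 4.51% of all 27025 genes with a window searched and 2.76% of the 9799 tested genes among them. The list was made of ATF4 response genes, so this excess may come from how it was chosen and is no result of the pools. Of genes that passed, 7 of 23 held a match, and of tested genes that did not pass, 3 of 8, so the match did not separate them. A match describes the letters and is no evidence of binding. Stretches around the match in 5 genes that rose are shown, read 5′ to 3′ on the strand of the gene with the match in capitals.
Asns (chr6:7693210-7693252, minus strand, motif 23 bases upstream): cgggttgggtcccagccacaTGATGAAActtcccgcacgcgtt
Chac1 (chr2:119351029-119351076, plus strand, motif 193 bases upstream): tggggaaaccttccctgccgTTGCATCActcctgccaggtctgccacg
Atf3 (chr1:191183416-191183463, minus strand, motif 110 bases upstream): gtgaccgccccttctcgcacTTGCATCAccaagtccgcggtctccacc
Aars (chr8:111033710-111033757, plus strand, motif 112 bases upstream): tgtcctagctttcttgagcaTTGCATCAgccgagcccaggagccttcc
Slc7a11 (chr3:50443652-50443699, minus strand, motif 66 bases upstream): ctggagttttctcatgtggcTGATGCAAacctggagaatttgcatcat

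In Asns and Slc7a11 the match reads along the gene, and in Chac1, Atf3 and Aars it lies on the opposite strand, where it reads TTGCATCA along the gene. The Slc7a11 promoter held a further match on the other strand, 47 bases upstream of its start. A pair of AGGNCA motifs 1 base apart, the element PPARα binds with its partner RXR, was searched on both strands. It occurred in 1 of 40 genes of the PPARα list with a window searched (Fabp1, 2.5%), against 0.451% of all genes with a window searched. Asns, which makes asparagine, stood at 220.1, 210.2 and 207 CPM in H10 libraries, against 152, 144 and 136 CPM in M90 libraries. Asns was 1.48-fold higher in H10 (log2 difference 0.56 ± 0.0578, edgeR adjusted p = 2.66e-09), with every H10 library above every M90 library. In Vehicle libraries Asns averaged 97.2 ± 1.35 CPM. Chac1, which degrades glutathione, stood at 70.9, 73.9 and 77.6 CPM in H10 libraries, against 47.8, 39.5 and 38.0 CPM in M90 libraries. Chac1 was 1.78-fold higher in H10 (log2 difference 0.83 ± 0.0834, edgeR adjusted p = 1.58e-09), with every H10 library above every M90 library. Slc7a11, the cystine importer, averaged 28.5 ± 4.62 CPM in H10 libraries and 16.5 ± 2.09 CPM in M90 libraries (log2 difference 0.78 ± 0.134, edgeR adjusted p = 4.32e-05). Atf3, a stress transcription factor, averaged 91.6 ± 2.59 CPM in H10 libraries and 52.8 ± 5.38 CPM in M90 libraries (log2 difference 0.80 ± 0.111, edgeR adjusted p = 2.50e-05). Aars, the alanyl-tRNA synthetase, averaged 257 ± 9.12 CPM in H10 libraries and 186 ± 3.84 CPM in M90 libraries (log2 difference 0.46 ± 0.0542, edgeR adjusted p = 4.11e-08).

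Atf4 itself (chr15:80255184-80257541) averaged 620.3 ± 4.31 CPM in H10 libraries and 506 ± 14.1 CPM in M90 libraries (log2 difference 0.29 ± 0.0403, edgeR adjusted p = 9.60e-07). Trib3, a pseudokinase induced late in the response, stood at 76.2, 78.7 and 76.2 CPM in H10 libraries, against 41.4, 36.2 and 32.6 CPM in M90 libraries, with Vehicle at 17.7 ± 1.63 CPM. Trib3 was 2.10-fold higher in H10 (log2 difference 1.07 ± 0.0964, edgeR adjusted p = 2.06e-10), with every H10 library above every M90 library. Atf5 and Ddit3 (CHOP), transcription factors of the same response, rose by 0.87 and 0.77 (edgeR adjusted p = 3.43e-12 and 7.74e-08). Enzymes of serine and 1-carbon metabolism rose alike. Mthfd2, of mitochondrial folate metabolism, averaged 80.3 ± 4.69 CPM in H10 libraries and 43.5 ± 1.37 CPM in M90 libraries (log2 difference 0.88 ± 0.0742, edgeR adjusted p = 2.47e-11). Psat1, Phgdh and Psph rose by 0.58, 0.47 and 0.69 (edgeR adjusted p = 6.32e-08, 0.00503 and 0.00269). Among amino acid transporters, Slc7a1, the importer of arginine and lysine, averaged 140.4 ± 6.63 CPM in H10 libraries and 80.3 ± 3.42 CPM in M90 libraries (log2 difference 0.80 ± 0.0600, edgeR adjusted p = 1.32e-12). Slc7a5 and Slc3a2, the chains of a leucine importer, rose by 0.81 and 0.39 (edgeR adjusted p = 9.36e-08 and 0.000477). The tRNA synthetases Gars, Wars, Sars and Nars rose by 0.26, 0.38, 0.42 and 0.39 (edgeR adjusted p = 0.000120, 6.62e-06, 2.58e-08 and 3.00e-09). Psat1, Phgdh and Slc7a1 averaged 70.4, 14.9 and 80.3 CPM in M90 libraries, against 97.8, 24.3 and 114 CPM in Vehicle libraries.

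Part of the endoplasmic reticulum chaperones rose, by smaller amounts. Of 34 tested, 14 rose and 0 fell (median 0.14), 9 rose without H10 b, and 2 passed with the library set term. Hspa5, the master chaperone BiP, averaged 795 ± 4.49 CPM in H10 libraries and 645 ± 21.0 CPM in M90 libraries (log2 difference 0.30 ± 0.0406, edgeR adjusted p = 6.52e-07). Canx, which folds glycoproteins, averaged 847 ± 6.16 CPM in H10 libraries and 707 ± 18.8 CPM in M90 libraries (log2 difference 0.26 ± 0.0405, edgeR adjusted p = 9.54e-06). Atf6, a sensor of unfolded protein, rose by 0.33 (edgeR adjusted p = 0.000174). Sec24d, of the export coat, rose by 0.28 (edgeR adjusted p = 0.000140). Xbp1, a further regulator of that response, rose by 0.19 (edgeR adjusted p = 0.00253). Of 22 heat shock proteins, 6 rose and 1 fell (median 0.0468), but as few as 1 rose when 1 library was left out (M90 b), and 2 without H10 a or H10 b. None passed with the library set term. Hspa9, the mitochondrial chaperone, rose by 0.20 (edgeR adjusted p = 0.000414) and did so with each library left out.

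Metallothioneins, small proteins that hold zinc and copper, fell together. Mt1 (chr8:94179082-94180327) stood at 1609.7, 1699 and 1749 CPM in H10 libraries, against 2811, 2768 and 2746 CPM in M90 libraries, with Vehicle at 1311 ± 111 CPM. Mt1 was 1.65-fold lower in H10 (log2 difference -0.72 ± 0.0486, edgeR adjusted p = 7.33e-13), with every H10 library below every M90 library. Mt2 stood at 883, 937 and 933 CPM in H10 libraries, against 1595, 1605 and 1592 CPM in M90 libraries (1.74-fold lower). Mt4 stood at 2.32, 3.48 and 2.47 CPM in H10 libraries, against 13.3, 16.2 and 16.1 CPM in M90 libraries. Mt4 was 5.53-fold lower in H10 (log2 difference -2.47 ± 0.247, edgeR adjusted p = 1.55e-09), with every H10 library below every M90 library. For all 3 the groups did not overlap, and they passed with the library set term (edgeR adjusted p = 2.01e-05, 4.93e-07 and 9.43e-05). Over the metal list, 6 passed as higher in H10 and 9 as lower of 37 tested (median log2 difference -0.00205, 2 and 3 with the library set term). The ferritin chains Fth1 and Ftl1, which store iron, fell by 0.273 and 0.371 (edgeR adjusted p = 2.11e-06 and 1.95e-07). Slc11a2, the apical iron importer, fell by 0.594 (edgeR adjusted p = 0.00909). Slc30a1, the zinc exporter of the plasma membrane, rose by 0.30 (edgeR adjusted p = 0.00163).

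Glucocorticoid-inducible genes divided, with 4 higher and 5 lower of 15 tested (median -0.14) and 1 and 3 with the library set term. Fkbp5, a chaperone that dampens the glucocorticoid receptor, stood at 7.49, 7.23 and 8.19 CPM in H10 libraries, against 14.5, 16.7 and 21.5 CPM in M90 libraries. Fkbp5 was 2.30-fold lower in H10 (log2 difference -1.20 ± 0.132, edgeR adjusted p = 1.07e-08), with every H10 library below every M90 library. In Vehicle libraries Fkbp5 averaged 19.4 ± 2.41 CPM. Sgk1, a kinase that raises sodium uptake, was 2.44-fold lower (edgeR adjusted p = 3.94e-10). Per1, a clock gene that glucocorticoids induce, was 1.61-fold lower (edgeR adjusted p = 7.32e-07). M10 averaged 85.9, 85.3 and 74.2 CPM for the 3 genes and H90 15.5, 8.82 and 22.4 CPM, so the mouse-modelled pools held the higher levels of Sgk1 and Per1. Of the genes that rose, Errfi1, which restrains the EGF receptor, averaged 158 CPM in H10 libraries and 120.2 CPM in M90 libraries (log2 difference 0.40 ± 0.0676, edgeR adjusted p = 5.28e-05), Nr3c1, the receptor, rose by 0.24 (edgeR adjusted p = 0.00196), and Lcn2 is described with the defence genes. Of 17 clock genes, 6 fell and 1 rose (median -0.0906), 3 fell without H10 a, and none passed with the library set term. Dbp and Per3, which peak with the clock's output, fell by 0.464 and 0.508 (edgeR adjusted p = 0.000357 and 0.000227).

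Subunits of the mitochondrial respiratory chain were lower in H10 throughout. Of 51 tested, 34 fell and 0 rose, all 51 differences were below 0, and they ran from -0.35 to -0.0469 (median -0.20). The summed level was 15676, 15655 and 16089.5 CPM in H10 libraries and 17523, 17745 and 17561 CPM in M90 libraries. Vehicle libraries stood at 14965, 14853 and 15699.6 CPM, so on TMM-scaled totals M90 lay above H10 and Vehicle. This depended on the scaling. On plain totals Vehicle (16027 to 16961 CPM) overlapped M90 (16944 to 17343 CPM), and H10 (15539.5 to 15878 CPM) lay below both. With the library set term 4 passed. Cox5b and Cox7b, subunits of cytochrome oxidase, averaged 286 ± 6.37 CPM in H10 libraries and 361 ± 6.13 CPM in M90 libraries and 330.0 ± 9.40 CPM in H10 libraries and 415 ± 3.15 CPM in M90 libraries (log2 difference -0.33 and -0.33, edgeR adjusted p = 2.89e-07 and 1.49e-07). Ndufa10 of complex I fell by 0.332 (edgeR adjusted p = 1.81e-06) and Atp5o of the ATP synthase by 0.302 (edgeR adjusted p = 6.11e-06).

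Antioxidant enzymes fell in part. Of NRF2 targets and antioxidant enzymes, 4 passed as higher in H10 and 17 as lower of 36 tested (median log2 difference -0.16, 2 and 6 with the library set term). Gpx2, the glutathione peroxidase of gut epithelium, stood at 158, 179 and 163 CPM in H10 libraries, against 364, 387 and 414 CPM in M90 libraries, and at 211 ± 34.9 CPM in Vehicle libraries. Gpx2 was 2.33-fold lower in H10 (log2 difference -1.22 ± 0.105, edgeR adjusted p = 3.12e-06), with every H10 library below every M90 library. Cat, catalase of the peroxisome, averaged 662 ± 36.6 CPM in H10 libraries and 922 ± 50.1 CPM in M90 libraries (log2 difference -0.48 ± 0.0473, edgeR adjusted p = 1.21e-09). Sod1, which removes superoxide, averaged 649.8 ± 20.5 CPM in H10 libraries and 864 ± 38.7 CPM in M90 libraries (log2 difference -0.41 ± 0.0435, edgeR adjusted p = 4.96e-09). Cbr3, a carbonyl reductase, fell by 0.808 (edgeR adjusted p = 5.84e-06). Nqo1, a defining NRF2 target, did not pass (log2 difference -0.35, 95% interval -0.61 to -0.0942, edgeR adjusted p = 0.0635), though it passed as lower in 7 alternatives, among them DESeq2, limma-voom and the 6 libraries alone (adjusted p from 8.40e-05 to 0.208 over the alternatives). Nfe2l2, which encodes NRF2, rose by 0.24 (edgeR adjusted p = 4.20e-05). Slc7a11, also an ATF4 target, was among the 4 that rose. Of glycolysis and hypoxia genes, 1 passed as higher in H10 and 7 as lower of 34 tested (median log2 difference -0.11, 0 and 2 with the library set term), and 12 fell without M90 c. Hif1a, the hypoxia factor, rose by 0.43 (edgeR adjusted p = 0.000723). Pfkfb4 and Pfkl, kinases of fructose phosphate, fell by 0.437 and 0.245 (edgeR adjusted p = 9.04e-07 and 0.000687).

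Genes of the ribosome moved in opposite senses by small amounts. Of 64 cytosolic ribosomal proteins, 19 fell and 0 rose (median -0.0908), 10 fell without H10 b, and none passed with the library set term. Rpl38 averaged 119 ± 5.61 CPM in H10 libraries and 146 ± 1.51 CPM in M90 libraries (log2 difference -0.29 ± 0.0579, edgeR adjusted p = 0.000331). Rps24 fell by 0.244 (edgeR adjusted p = 0.000131). Of 33 ribosome biogenesis genes, 7 rose and 0 fell, none with the library set term, and 1 rose without M90 a, 3 without M90 b and 2 without any 1 H10 library. Utp20, which processes ribosomal RNA, was the member that rose with each library left out, at 22.6 ± 1.30 CPM in H10 libraries and 14.3 ± 1.72 CPM in M90 libraries (log2 difference 0.66 ± 0.128, edgeR adjusted p = 0.000248). H90 a lay 0.37 above H90 b and c for it.

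Many growth factor signalling genes rose in H10. Of immediate early and MAPK feedback genes, 16 passed as higher in H10 and 0 as lower of 34 tested (median log2 difference 0.25, 7 and 0 with the library set term). Egr1, an early response transcription factor, stood at 49.9, 55.4 and 52.0 CPM in H10 libraries, against 33.2, 37.9 and 36.6 CPM in M90 libraries. Egr1 was 1.46-fold higher in H10 (log2 difference 0.55 ± 0.0897, edgeR adjusted p = 2.27e-05), with every H10 library above every M90 library. Phlda1, induced by growth factors, stood at 102, 90.8 and 96.4 CPM in H10 libraries, against 61.8, 56.4 and 59.2 CPM in M90 libraries, with Vehicle at 24.8 ± 1.96 CPM. Phlda1 was 1.63-fold higher in H10 (log2 difference 0.71 ± 0.0798, edgeR adjusted p = 2.29e-08), with every H10 library above every M90 library. Ier5 and Dusp6, an early gene and a phosphatase of ERK, rose by 0.54 and 0.43 (edgeR adjusted p = 7.85e-09 and 0.00337). Klf4 and Klf6, transcription factors of differentiated epithelium, rose by 0.42 and 0.36 (edgeR adjusted p = 0.00124 and 2.62e-07). Fos rose by 0.47 (edgeR adjusted p = 0.0220), but its adjusted p was 0.0897 without H10 a, 0.0972 without M90 b, 0.0849 without M90 c. Among EGF receptor ligands and receptors, 5 passed as higher in H10 and 1 as lower of 12 tested (median log2 difference 0.35, 3 and 0 with the library set term). Areg (chr5:91139599-91148432) and Ereg, ligands of the receptor, stood at 299, 287 and 294 CPM in H10 libraries, against 232, 202 and 207 CPM in M90 libraries, and at 161, 181 and 170.4 CPM in H10 libraries, against 116, 106 and 111 CPM in M90 libraries, and they rose with edgeR adjusted p = 1.86e-06 and 7.97e-10. No H10 library overlapped an M90 library for either, and the receptor gene Egfr rose by 0.48 (edgeR adjusted p = 0.00683). Erbb2 fell by 0.252 (edgeR adjusted p = 0.000853).

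Of genes of epithelial repair and YAP signalling, 10 passed as higher in H10 and 2 as lower of 31 tested (median log2 difference 0.24, 7 and 1 with the library set term). Krt7, a simple keratin, averaged 448 ± 18.0 CPM in H10 libraries and 323 ± 16.6 CPM in M90 libraries (log2 difference 0.47 ± 0.0485, edgeR adjusted p = 2.66e-09), and Il1rn, the interleukin-1 antagonist, rose by 0.48 (edgeR adjusted p = 2.90e-07). Clu, clusterin, which marks regenerating stem cells, went the other way, at 22.8, 19.3 and 20.8 CPM in H10 libraries, against 51.5, 53.1 and 59.0 CPM in M90 libraries (2.60-fold lower, log2 difference -1.38 ± 0.0956, edgeR adjusted p = 2.68e-13; -1.63 with edgeR adjusted p = 2.80e-07 with the set term). Of CDK inhibitors and p53 targets, 9 passed as higher in H10 and 1 as lower of 30 tested (median log2 difference 0.11, 3 and 0 with the library set term), and 5 rose without H10 a. Cdkn2b, the inhibitor p15, stood at 196, 189 and 179.9 CPM in H10 libraries, against 114, 108 and 112 CPM in M90 libraries and was 1.70-fold higher (log2 difference 0.76 ± 0.0570, edgeR adjusted p = 1.34e-12). Its H10 libraries lay above all M90 libraries, and Vehicle averaged 110.1 ± 4.33 CPM. Trp53inp1, a p53 target, rose by 0.67 (edgeR adjusted p = 2.80e-07). Ccnd2, cyclin D2, averaged 115 CPM in H10 libraries and 80.2 CPM in M90 libraries (log2 difference 0.52 ± 0.0573, edgeR adjusted p = 1.08e-08), both below the Vehicle mean of 351 ± 13.9 CPM.

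Of enterocyte and brush border genes, 7 passed as higher in H10 and 11 as lower of 45 tested (median log2 difference -0.0142, 2 and 1 with the library set term), and 4 rose without H10 c. Digestive genes were among both, as the peptidase Enpep was higher by 0.14 (edgeR adjusted p = 0.0160, and 0.0551 without H10 a, 0.0596 without H10 b, 0.0506 without H10 c, 0.0861 without M90 a) and the peptidase Anpep fell. Anpep, the brush border aminopeptidase, stood at 1170.3, 1239 and 1261 CPM in H10 libraries, against 1712, 1895 and 1749 CPM in M90 libraries. Anpep was 1.46-fold lower in H10 (log2 difference -0.55 ± 0.0690, edgeR adjusted p = 2.54e-05), with every H10 library below every M90 library. The mean was 3528 CPM in M10 libraries and 857 CPM in H90 libraries. Ggt1, which cuts glutathione outside the cell, was 1.76-fold lower (log2 difference -0.82 ± 0.0659, edgeR adjusted p = 7.77e-12). Naaladl1 and Ace, peptidases, fell by 0.409 and 0.565 (edgeR adjusted p = 3.09e-08 and 3.40e-06). Of nutrient importers, Slc15a1 for peptides, Slc2a5 for fructose and Slc6a19 for neutral amino acids fell by 0.423, 0.597 and 0.475 (edgeR adjusted p = 0.000221, 8.97e-06 and 0.000530). Slc5a1 for glucose did not pass (log2 difference -0.0640, 95% interval -0.30 to 0.17, edgeR adjusted p = 0.779). Sis, sucrase, did not pass either (log2 difference 0.21, 95% interval 0.0572 to 0.36, edgeR adjusted p = 0.0641), though it passed as higher in 5 alternatives, among them DESeq2 and the 6 libraries alone (adjusted p from 2.08e-07 to 0.181 over the alternatives). Cdh17, the intestinal cadherin, rose (1905 ± 18.2 CPM in H10 libraries and 1499 ± 58.1 CPM in M90 libraries, log2 difference 0.35 ± 0.0381, edgeR adjusted p = 1.11e-08).

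Over ion transport and barrier genes, 11 passed as higher in H10 and 4 as lower of 32 tested (median log2 difference 0.0533, 6 and 2 with the library set term). The tight junction genes Ocln, Tjp1 and F11r rose by 0.34, 0.30 and 0.26 (edgeR adjusted p = 1.55e-06, 4.20e-05 and 3.39e-05). Cldn2 stood at 205, 189 and 189.8 CPM in H10 libraries, against 119, 129 and 117 CPM in M90 libraries, with the groups apart and Vehicle at 215 ± 6.57 CPM. Aqp3, a water and glycerol channel, stood at 1.45, 1.87 and 2.16 CPM in H10 libraries, against 6.73, 8.04 and 6.89 CPM in M90 libraries. Aqp3 was 3.92-fold lower in H10 (log2 difference -1.97 ± 0.330, edgeR adjusted p = 3.13e-05), with every H10 library below every M90 library. Car4, a surface carbonic anhydrase, averaged 6.12 ± 1.10 CPM in H10 libraries and 18.1 ± 2.76 CPM in M90 libraries (2.97-fold lower, log2 difference -1.57 ± 0.170, edgeR adjusted p = 7.63e-09). Slc26a3, the chloride exchanger, fell by 0.475 (edgeR adjusted p = 2.38e-08). Cftr, the chloride channel, did not pass (log2 difference -0.0448, 95% interval -0.24 to 0.15, edgeR adjusted p = 0.839), although both pools lay below Vehicle (107 ± 4.02 CPM).

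Over the 4 lists of secretory cells, 14 of 95 genes passed (14.7%), which is near the 15% of all genes. Of these, 2 rose (2.11%, against 7.55% of all genes) and 12 fell (12.6%, against 7.46%). Of 33 enteroendocrine genes, 5 fell and none rose (median -0.19), a share of 15.2% set beside 7.46% of all genes that fell, and none passed with the library set term. Gcg, which encodes GLP-1, stood at 1016, 1046 and 1076 CPM in H10 libraries, against 1195, 1278 and 1271 CPM in M90 libraries. Gcg was 1.19-fold lower in H10 (log2 difference -0.25 ± 0.0514, edgeR adjusted p = 0.000549), with every H10 library below every M90 library. Cck and Sct, cholecystokinin and secretin, fell by 0.327 and 0.480 (edgeR adjusted p = 4.00e-06 and 0.000154). Of 21 tuft cell genes, 3 fell (median -0.38), 1 without H10 c and none with the set term. Trpm5, their cation channel, averaged 30.5 ± 1.98 CPM in H10 libraries and 43.1 ± 4.40 CPM in M90 libraries (log2 difference -0.50 ± 0.107, edgeR adjusted p = 0.000777). Dclk1, their usual marker, did not pass (log2 difference -0.0773, 95% interval -0.27 to 0.12, edgeR adjusted p = 0.676). Of goblet cell genes, 2 passed as higher in H10 and 3 as lower of 22 tested (median log2 difference 0.0701, 1 and 0 with the library set term), and 1 rose without any 1 library other than H10 b. Zg16, a lectin of mucus, averaged 563 ± 11.5 CPM in H10 libraries and 790.2 ± 35.4 CPM in M90 libraries and fell (log2 difference -0.49 ± 0.0562, edgeR adjusted p = 2.19e-07). Fcgbp, a mucus protein, averaged 1671 ± 5.50 CPM in H10 libraries and 1230.5 ± 72.2 CPM in M90 libraries and rose (log2 difference 0.44 ± 0.0567, edgeR adjusted p = 2.93e-06). Muc2, the mucin itself, did not pass (log2 difference 0.00849, 95% interval -0.17 to 0.19, edgeR adjusted p = 0.972). Of 19 Paneth cell genes only Guca2b passed, a guanylin more often placed with enterocytes, at 216, 189.6 and 242 CPM in H10 libraries, against 404, 403 and 324 CPM in M90 libraries. Guca2b was 1.74-fold lower in H10 (log2 difference -0.80 ± 0.108, edgeR adjusted p = 0.000297), with every H10 library below every M90 library. Lyz1, lysozyme, overlapped (log2 difference 0.14, 95% interval -0.15 to 0.42, edgeR adjusted p = 0.581).

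Of antimicrobial and mucosal defence genes, 6 rose and 2 fell of 26 tested (median 0.14), none with the library set term. Among those that rose, Lcn2, Saa1 and Saa2 are acute phase genes for which H90 a lay 2.14, 3.74 and 4.15 above H90 b and c. Saa1 had edgeR adjusted p of 0.0577 without M90 b and 0.0567 without M90 c, and Saa2 of 0.0584, 0.0721 and 0.0541 without M90 a, b and c. Lcn2, lipocalin, stood at 3.45, 2.29 and 2.12 CPM in H10 libraries, against 0.0502, 0.347 and 0 CPM in M90 libraries, and at 2.07 ± 0.454 CPM in Vehicle libraries. Ccl20, a chemokine of gut epithelium, stood at 6.03, 9.25 and 8.39 CPM in H10 libraries, against 3.01, 3.95 and 2.95 CPM in M90 libraries. Ccl20 was 2.39-fold higher in H10 (log2 difference 1.25 ± 0.308, edgeR adjusted p = 0.00441), where H90 a differed by 0.29. Reg4 and Dmbt1, secreted defence proteins, fell by 0.295 and 0.543 (edgeR adjusted p = 0.00408 and 0.000615). Of interferon and MHC genes, 4 passed as higher in H10 and 3 as lower of 39 tested (median log2 difference -0.0829, 3 and 0 with the library set term). These 17.9% stood near the 15% of all genes that passed, so the genes below are given singly. H2-Q2, a class I gene with near-identical copies, averaged 197 ± 5.92 CPM in H10 libraries and 143 ± 3.77 CPM in M90 libraries (log2 difference 0.46 ± 0.0551, edgeR adjusted p = 7.74e-08). B2m, the shared light chain, fell by 0.214 (edgeR adjusted p = 0.000582).

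In the lists of this paragraph, 0% to 19.2% of tested genes passed, set beside 15% of all genes. With the library set term none passed in the lists of ceramide, autophagy, apoptosis, Paneth, crypt stem cell and fate factor genes. Of ceramide genes, 2 rose and 3 fell of 26 tested (19.2%), while without H10 a, H10 b or M90 b none rose and 2 fell, and without M90 a or M90 c 1 rose. The list was led by Cers4, a ceramide synthase that fell by 0.768 (edgeR adjusted p = 0.000292). Of autophagy and lysosome genes, 2 rose and 5 fell of 42 tested (16.7%), while without M90 a none rose and 2 fell, and without H10 a or M90 c none rose and 3 fell. Among them was Lipa, the lysosomal lipase, which fell by 0.396 (edgeR adjusted p = 0.000766). Of apoptosis regulators, 4 rose and 1 fell of 30 tested (16.7%), while without H10 b, H10 c, M90 b or M90 c 2 rose and none fell. Ripk3, a kinase of necroptosis, rose by 0.33 (edgeR adjusted p = 0.000514). Crypt stem cell genes had 1 of 24 (4.17%), a call lost without H10 b or M90 a, and none of 17 Notch and secretory fate factors passed. Lgr5, the stem cell receptor, stood at 2.10, 3.38 and 3.41 CPM in H10 libraries, against 2.76, 3.13 and 2.87 CPM in M90 libraries (log2 difference 0.0278, 95% interval -0.53 to 0.58, edgeR adjusted p = 0.972). Olfm4, a stem cell protein, averaged 0.464 CPM in H10 libraries and 0.556 CPM in M90 libraries, against 81.4 ± 5.12 CPM in Vehicle libraries.

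Liver transcripts were higher in H10, and they followed library set. The sets were defined by Mup20, itself a member of this list. That the list followed them, in the set term and in H90, is therefore a description and no independent result. Of 29 hepatocyte markers tested, 21 rose and none fell (median 1.47), and none passed with the library set term. H90 a lay above H90 b and c by a median of 1.53 on the same list. The count was 9 without H10 a, 7 without M90 a and 5 without M90 b. Summed without Cps1, a urea cycle enzyme that the organoids of all groups expressed, levels were 602, 404 and 420.1 CPM in H10 libraries and 152, 144 and 199 CPM in M90 libraries, against 457, 399.7 and 368 CPM in Vehicle libraries. H10 thus stood near Vehicle, and M90 below both. Hp, haptoglobin, stood at 19.2, 14.6 and 13.8 CPM in H10 libraries, against 2.26, 2.61 and 3.04 CPM in M90 libraries. Hp was 5.98-fold higher in H10 (log2 difference 2.58 ± 0.382, edgeR adjusted p = 0.000225), with every H10 library above every M90 library. Fgb, a fibrinogen chain, averaged 20.9 ± 5.45 CPM in H10 libraries and 5.13 ± 0.686 CPM in M90 libraries (log2 difference 2.02 ± 0.410, edgeR adjusted p = 0.00602). Alb, serum albumin, averaged 110.1 ± 24.8 CPM in H10 libraries and 41.3 ± 9.57 CPM in M90 libraries (edgeR adjusted p = 0.0158, and 0.0683 without H10 a, 0.0608 without M90 a, 0.0754 without M90 b). Their part in the other results was not tested, beyond the gene-by-gene gauges given. In the opposite sense, Col1a1, a fibroblast collagen, held 2, 0 and 1 counts in H10 libraries, against 142, 88 and 182 counts in M90 libraries, and 0, 103 and 97 counts in H90 a, b and c. Other fibroblast collagens held too few reads to say if they went with it. On plain totals, Col1a2 stood at 0.160, 0 and 0.0387 CPM in H10 libraries, against 0.194, 0.0425 and 0.0421 CPM in M90 libraries. Col3a1 stood at 0, 0.103 and 0.116 CPM in H10 libraries, against 0.291, 0.127 and 0.168 CPM in M90 libraries. Of the 4 fibroblast genes tested, Pdgfrb fell too, at 7.16, 6.09 and 6.11 CPM of plain totals in H10 libraries, against 10.2, 11.1 and 13.2 CPM in M90 libraries.

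**Figure D5:**
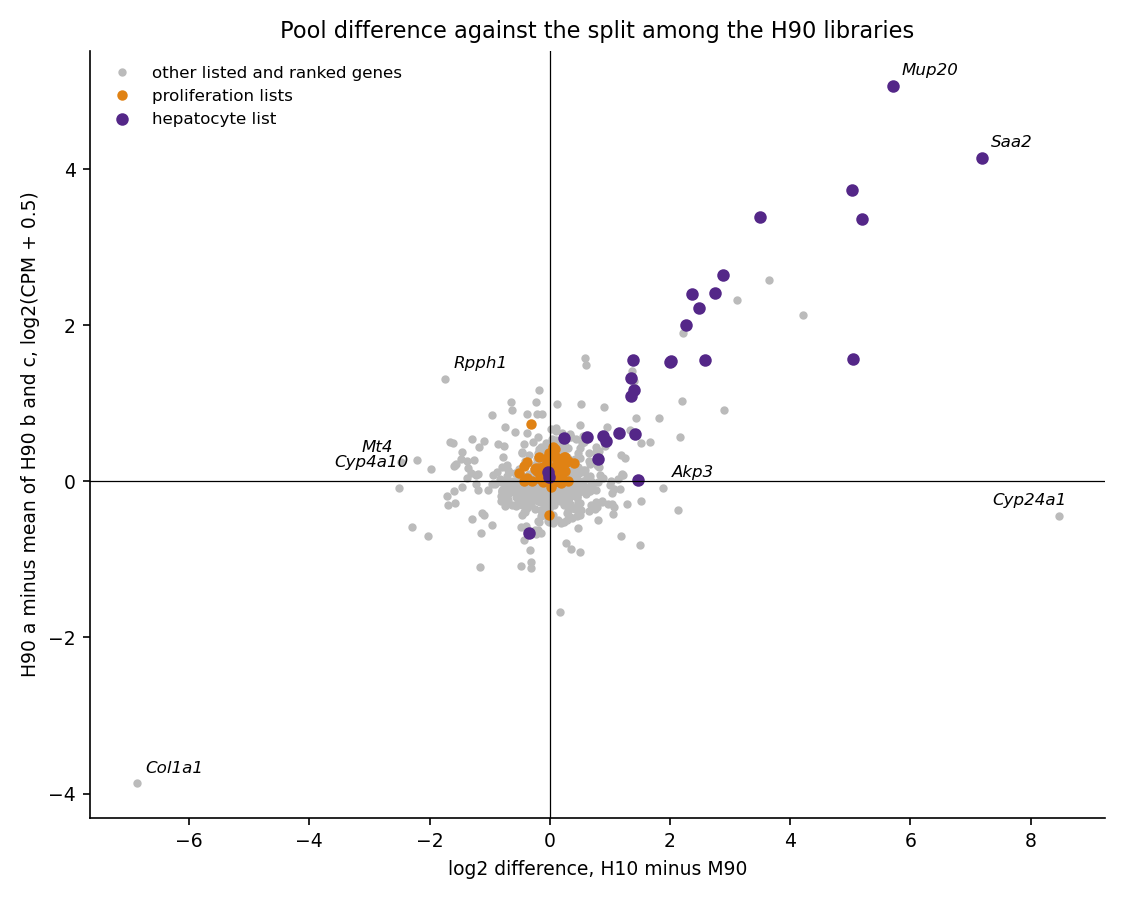
Log2 difference H10 minus M90 (horizontal axis) against the log2 level, log2(CPM + 0.5), of H90 a minus the mean of H90 b and c (vertical axis), for listed and ranked genes; each point is a gene. Most hepatocyte markers lie above 0 on both axes, as does Mup20, the gene that defined the library sets, at 5.71 and 5.07. Cyp24a1 lies at 8.47 with an H90 split of -0.44, and the proliferation genes lie near 0.

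The genes ranked highest by size, among those that passed with a mean of at least 2 CPM and groups that did not overlap, were led on the higher side by Cyp24a1 and then by liver and acute phase genes, from Saa2 (H90 a above H90 b and c by 4.15) to Azgp1 (1.90). Ranked only among genes on which the H90 libraries lay within 0.5 log2, named genes outside the lists came forward. This ranking was chosen after the data were seen. Akp3, an intestinal alkaline phosphatase, stood at 32.3, 36.3 and 38.4 CPM in H10 libraries, against 8.29, 10.8 and 9.80 CPM in M90 libraries and was 3.70-fold higher (log2 difference 1.89 ± 0.125, edgeR adjusted p = 1.18e-13; 1.98 with edgeR adjusted p = 1.14e-06 with the set term). Kitl, the ligand of the receptor Kit, averaged 82.3 ± 3.85 CPM in H10 libraries and 40.4 ± 2.28 CPM in M90 libraries (log2 difference 1.03 ± 0.0731, edgeR adjusted p = 5.31e-13). Itga2, a collagen-binding integrin, rose as well (log2 difference 1.22 ± 0.134, edgeR adjusted p = 1.13e-08). Itga2 stood at 30.2, 21.3 and 25.6 CPM in H10 libraries, against 11.1, 12.2 and 9.80 CPM in M90 libraries, both below the Vehicle mean of 48.9 ± 6.21 CPM. Rin1, an effector of Ras, averaged 45.8 ± 3.32 CPM in H10 libraries and 21.7 ± 2.37 CPM in M90 libraries (log2 difference 1.08 ± 0.106, edgeR adjusted p = 9.87e-10). Defb37, a β-defensin, averaged 31.7 ± 2.44 CPM in H10 libraries and 15.5 ± 0.886 CPM in M90 libraries (log2 difference 1.03 ± 0.121, edgeR adjusted p = 4.53e-08). Tm4sf1, Cdr2l, Fam129a, Cdh16 and Adamts15 rose by 1.05, 1.20, 1.03, 1.52 and 0.97 (edgeR adjusted p = 0.00142, 0.00373, 2.41e-07, 0.00354 and 0.000181). On the lower side, Cyp27a1, an enzyme of bile acid and vitamin D metabolism, stood at 2.91, 2.08 and 2.59 CPM in H10 libraries, against 6.48, 7.99 and 8.64 CPM in M90 libraries. Cyp27a1 was 3.05-fold lower in H10 (log2 difference -1.61 ± 0.219, edgeR adjusted p = 8.61e-07), with M10 at 23.0 CPM. Vwa1, an extracellular matrix protein ranked among all genes, stood at 0.916, 1.30 and 2.55 CPM in H10 libraries, against 7.28, 8.21 and 8.47 CPM in M90 libraries. Vwa1 was 4.90-fold lower in H10 (log2 difference -2.29 ± 0.333, edgeR adjusted p = 3.06e-06), with H90 a lower than H90 b and c by 0.58. Anks6, a protein of cilia, averaged 2.06 ± 0.465 CPM in H10 libraries and 5.69 ± 0.828 CPM in M90 libraries (log2 difference -1.47 ± 0.319, edgeR adjusted p = 0.000965). Acot3, the lowest of this ranking, stood at 0.916, 0.468 and 0.627 CPM in H10 libraries, against 3.32, 4.21 and 3.89 CPM in M90 libraries, where close copies could share reads. Tymp, Chrna2 and Card9 also ranked among the lower genes, but each call was lost in at least 1 leave-one-out fit (largest edgeR adjusted p 0.0672, 0.163 and 0.180).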

How the data were processed

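Poly-A RNA (integrity numbers above 8) was sequenced from TruSeq libraries, per the labels. The authors deposited raw read counts per gene symbol, made with bcl2fastq 2.17, STAR 2.5.2b and featureCounts 1.5.0-p3 on mm10 (GRCm38), per the submitters' processing notes. Annotation, strand setting and handling of multimapping reads are not given in the sources used here, so overlapping genes and near-identical copies can share reads.

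Symbols were filtered with filterByExpr (13159 of 23420 kept), scaled by TMM and fitted in R 4.3.3 with edgeR 4.0.16 (robust quasi-likelihood, two-sided F tests, 1 model of 5 group means, 10 residual degrees of freedom), and the scripts were tested on simulated data. Standard errors and 95% intervals hold the spread between libraries. Coordinates come from GENCODE vM21 (21777 symbols matched) and promoters from RefSeq (GRCm38.p6). Alternatives used limma 3.58.1 and DESeq2 1.42.0, and tables and figures python 3.11.15, pandas 2.3.3 and matplotlib 3.10.9.

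The pair of pools and the 46 gene lists were chosen with earlier results of these data known, as was the term for library set. Genes named are the key genes of each list, up to 3 members of each list with the smallest adjusted p, and the 15 largest rises and falls with adjusted p under 0.05, at least 2 CPM and groups that did not overlap, without unnamed predicted genes. Further list members named in the text were chosen after their values were seen. Single values of a few genes are not reported here. Same-lettered libraries did not deviate together (correlations 0.00695, -0.0237 and -0.0172), so letters were not used as pairs. Library set was told apart at 10 CPM of Mup20.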

Additional observations from a re-analysis of the deposited data

How the results depend on the processing

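Against 1975 genes in the main model, 2991 passed with the 6 libraries modelled alone, 365 with library set as a term (183 higher, 182 lower) and 154 with a 2-fold minimum. Leaving out 1 library gave 1303 (without M90 b) to 1618 genes. With a block for the replicate letters 2053 passed, a pairing the correlations of same-lettered libraries did not bear out. Other scalings, filters and tools gave 1938 to 2190 genes, and leaving out H90 2269, a choice made after the data were seen. The share called higher was 57.8% with library size as the only scaling, against 50.3%. Of 300 named genes 196 passed, 143 of them under every alternative except the library set term, and 82 with that term. With it 10 of the 196 genes changed sign. They were Ambp (-0.17), Azgp1 (-0.39), Col1a1 (3.34), Ctsz (0.0232), Cyp2e1 (-0.22), Guca2a (0.0281), Mup20 (-0.47), Mup7 (-0.22), Serpina1c (-1.16) and Serpina3n (-0.0240). A further 23 named genes, which passed in neither model, changed sign and moved by more than 1 standard error. The cause was not tested. Depth limits genes of a few counts, such as Col1a1 in H10 and Saa2 in M90.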

Other observations

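Gene families grouped by symbol were chosen after the data were seen, and they share members with the lists. Aars, Gars, Wars, Sars, Nars, Cox5b and Cox7b, described above, are counted again here. Of 17 tRNA synthetase genes tested, 13 rose and none fell (median log2 difference 0.32), and 7 passed as higher with the library set term. Of 56 translation initiation factor genes (Eif), 12 rose and 2 fell (median 0.057, and 3 and 0 with that term). The 12 include Eif4ebp1, an ATF4 target that restrains cap-dependent translation, and Eif2ak3, the stress kinase PERK. The edgeR adjusted p of Eif2ak3 was 0.0717 without H10 b and 0.118 without M90 b. Each family is to be set beside all tested genes, of which 7.55% rose and 7.46% fell. Of 264 solute carriers, 30 rose and 53 fell (9 and 10 with that term), and of 18 aldehyde dehydrogenases 1 rose and 7 fell (0 and 4). Of 22 cytochrome oxidase genes (Cox), 11 fell and none rose (2 and 0 with that term). Of 76 mitochondrial ribosomal protein genes 6 fell and 1 rose (none with it), and the share that fell was near that of all genes. Proteasome genes (42 tested, 0 rose and 1 fell), zinc finger genes of the Zfp group (310 tested, 3 rose and 4 fell) and histone genes (17 tested, 1 rose and 1 fell) lay at or below the share over all genes. Of 16 keratin genes 4 rose and none fell (3 and 0 with that term).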
